A study of Homo sapiens with 51 samples.

Results

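The 10 genes described here, CCN1, CCN2, ANKRD1, AXL, AMOTL2, AJUBA, LATS2, TEAD1, YAP1 and WWTR1, are components and common target genes of the YAP and TEAD transcription programme. They were taken by symbol from a table of 25421 gene symbols. All 10 were found there, and all 10 passed the filter on low counts in every fit. The table held 51 libraries from 5 human cell lines of pancreatic ductal adenocarcinoma (PDA), in 17 groups of 3. Each library was made by PLATE-seq, in which the 3′ ends of the cDNA of each well are barcoded before the wells are pooled and sequenced, and the values were raw counts per gene.

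KP4, PANC1 and PK45H each formed 5 groups. The first was untreated. The others had received a lentiviral open reading frame (ORF) of mCherry, a fluorescent protein and the labelled negative control, or of OVOL2, a zinc-finger transcription factor known to repress mesenchymal genes in epithelia, and each ORF was used alone or together with M2rtTA. M2rtTA is a doxycycline-dependent transactivator of tetracycline-inducible promoters, so there were OVOL2 and mCherry groups without M2rtTA and OVOL2 and mCherry groups with it. Every transduced group shared the same handling: a multiplicity of infection of 2, 8 µg/ml of polybrene, selection in 2.5 µg/ml of puromycin, and 0.6 µg/ml of doxycycline from the next day. RNA was taken after 6 days. The promoter that drives each ORF, and whether untreated cells received any of these agents, are not given in the sources used here. HPAFII and PATU8988S were present as untreated cells only.

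YAP1 and WWTR1 (also known as TAZ) are transcriptional coactivators without DNA binding of their own. They enter the nucleus when the Hippo kinases are inactive and bind TEAD family factors, which carry the DNA-binding domain and recognise short GGAATG-type sites. The kinase LATS2 phosphorylates YAP1 and WWTR1 and keeps them in the cytoplasm, and LATS2, AMOTL2 and AJUBA are themselves induced by or feed back on the pathway. CCN1, CCN2, ANKRD1 and AXL are target genes that are often read as a sign of YAP and TEAD activity, and in PDA the programme is known for its part in invasion. The counts measure RNA and not the location or activity of the coactivator proteins.

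Library totals ran from 1165399 to 7490556 counts. The lowest was HPAFII replicate 2, which also stood apart in composition. Over the 40 genes highest in HPAFII against untreated KP4, PANC1 and PK45H, its median ratio to its 2 mates was 0.4. The tests between untreated lines are therefore given with and without this library. OVOL2 itself was the check of the labels. Summed over 9 libraries of each kind, OVOL2 had 54 counts with the OVOL2 ORF and 56 with mCherry in the groups without M2rtTA, and 178 against 42 with M2rtTA. Of the 178, 62 were in KP4 OVOL2 + M2rtTA replicate 2 (mates 13 and 9). In PANC1 with M2rtTA the OVOL2 libraries (6, 20 and 9 counts) overlapped the mCherry libraries (7, 3 and 2) and the untreated ones (13, 10 and 2). In KP4 and PK45H with M2rtTA the OVOL2 libraries all lay above the mCherry libraries. Reads from the 3′ end of the endogenous mRNA need not cover an ORF construct, so this check is limited, and groups are named by their labels. All 5 epithelial markers of PDA cells (KRT8, KRT18, KRT19, EPCAM, MUC1) were detected in every group, with a summed level of 452 to 9050 CPM (a gene's counts per 1000000 counts of its library). Markers of other cell types summed to less: 0.427 to 32.3 CPM over 5 leukocyte genes, 2.9 to 13.7 CPM over 3 endothelial genes and 7.17 to 64.8 CPM over 5 fibroblast genes. Of the fibroblast genes, LUM and PDGFRB reached at most 0.781 and 0.905 CPM. DCN ran from 1.01 to 6.33 CPM, COL1A1 from 3.43 to 58.2 CPM and COL1A2 from 0.944 to 7.06 CPM. The epithelial MUC1 ran from 0.487 to 94.8 CPM. In bulk RNA, fewer cells of a type and less RNA per cell cannot be told apart.

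Before the values, stretches just upstream of an annotated start of 4 of the genes are shown. They carry the site that TEAD factors recognise and belong to genes whose levels are compared further on. They are RefSeq promoter windows of the build GRCh38.p14, each covering the 250 bases before an annotated start. The table held 12 such windows for 8 of the 10 genes (CCN1 and TEAD1 were not matched). GGAATG, searched on both strands, was present in 6 of the 12 windows, 1 each in CCN2, ANKRD1, AXL, AMOTL2, AJUBA and YAP1, against 11.9% of all 35116 windows of this length. The CCN2 window (chr6:131951373-131951622, minus strand) held 3 copies, which 0.0826% of all windows did, starting 169, 104 and 95 bases before the start. The ANKRD1 window (chr10:90921088-90921337, minus strand) held 2, at 220 and 128 bases. The second AXL window (chr19:41226505-41226754, plus strand) held 1 on the reverse strand, written as its complement, at 212 bases. The first AJUBA window (chr14:22976843-22977092, minus strand) held 1 at 59 bases. Windows are numbered by coordinate, and both of these precede a start inside the gene. The windows before the outermost start, chr19:41218973-41219222 for AXL and chr14:22982552-22982801 for AJUBA, held 0 matches of GGAATG. Each sequence is printed 5′ to 3′ in the direction of the gene, with the matches in capitals.
CCN2: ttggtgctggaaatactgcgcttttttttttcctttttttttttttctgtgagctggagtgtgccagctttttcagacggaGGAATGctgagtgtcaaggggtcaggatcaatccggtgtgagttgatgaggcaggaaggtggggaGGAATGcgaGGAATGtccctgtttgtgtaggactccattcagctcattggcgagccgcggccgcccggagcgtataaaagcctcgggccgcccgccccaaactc
ANKRD1: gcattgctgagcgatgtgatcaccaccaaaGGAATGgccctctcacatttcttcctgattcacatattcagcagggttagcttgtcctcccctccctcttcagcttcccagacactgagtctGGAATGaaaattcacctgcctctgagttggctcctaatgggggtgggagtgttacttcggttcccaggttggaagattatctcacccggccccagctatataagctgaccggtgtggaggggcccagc
AXL: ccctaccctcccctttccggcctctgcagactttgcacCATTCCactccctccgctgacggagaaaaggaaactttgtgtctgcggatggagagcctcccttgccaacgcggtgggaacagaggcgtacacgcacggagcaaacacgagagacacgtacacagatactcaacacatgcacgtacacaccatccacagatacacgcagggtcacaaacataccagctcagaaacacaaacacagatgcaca
AJUBA: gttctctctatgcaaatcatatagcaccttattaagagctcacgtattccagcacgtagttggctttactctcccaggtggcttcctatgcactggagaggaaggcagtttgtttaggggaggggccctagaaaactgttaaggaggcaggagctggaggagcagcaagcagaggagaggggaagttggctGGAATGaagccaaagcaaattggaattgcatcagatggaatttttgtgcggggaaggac
The sequence CCGTTA, the core bound by OVOL factors, was in 0 of the 12 windows on either strand and in 2.45% of all windows. CACCTG, an E-box that ZEB and SNAIL repressors bind, was in 4 of the 12 (ANKRD1, AXL, AJUBA and LATS2) and in 17.5% of all windows. TGANTCA, a loose form of the AP-1 site in which N is any base, was in the ANKRD1 window and in 6.57% of all. The ANKRD1 match read TGATTCA. None of these motifs overlapped another in the 12 windows. A match describes the letters in the window and is not evidence of binding.

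In the mean over KP4, PANC1 and PK45H, the secreted and surface targets CCN1, CCN2 and AXL and the adaptor AJUBA were lower with OVOL2 than with mCherry when M2rtTA was absent. CCN2 showed the largest of these 4 changes, 2.04-fold lower. With M2rtTA, CCN1, CCN2 and AJUBA were lower, by 1.62-, 1.55- and 1.24-fold. The coactivators YAP1 and WWTR1 and the factor TEAD1 did not pass the test in either arm. The mean hides a difference between lines: CCN2 was 6.71-fold lower in PK45H and did not pass the test in PANC1 or KP4.

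Throughout, levels are CPM scaled for library composition. A change is a log2 fold change, given with its standard error (SE) or 95% interval by edgeR's quasi-likelihood test, and a gene is said to have risen or fallen where its Benjamini-Hochberg adjusted p, over all genes of the fit, was under 0.05. Without M2rtTA, 4 of the 10 genes passed over the lines, all lower, where 18.1% of 14943 genes passed, 9.32% higher and 8.81% lower. With M2rtTA, 3 of the 10 passed, all lower, where 32.9% of all genes passed, 15.7% higher and 17.3% lower, so the share among the 10 was close to that of all genes in that arm. The median change of the 10 genes was -0.27 without and -0.10 with M2rtTA, beside 0.00 and 0.03 for all genes.

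**Figure D1:**
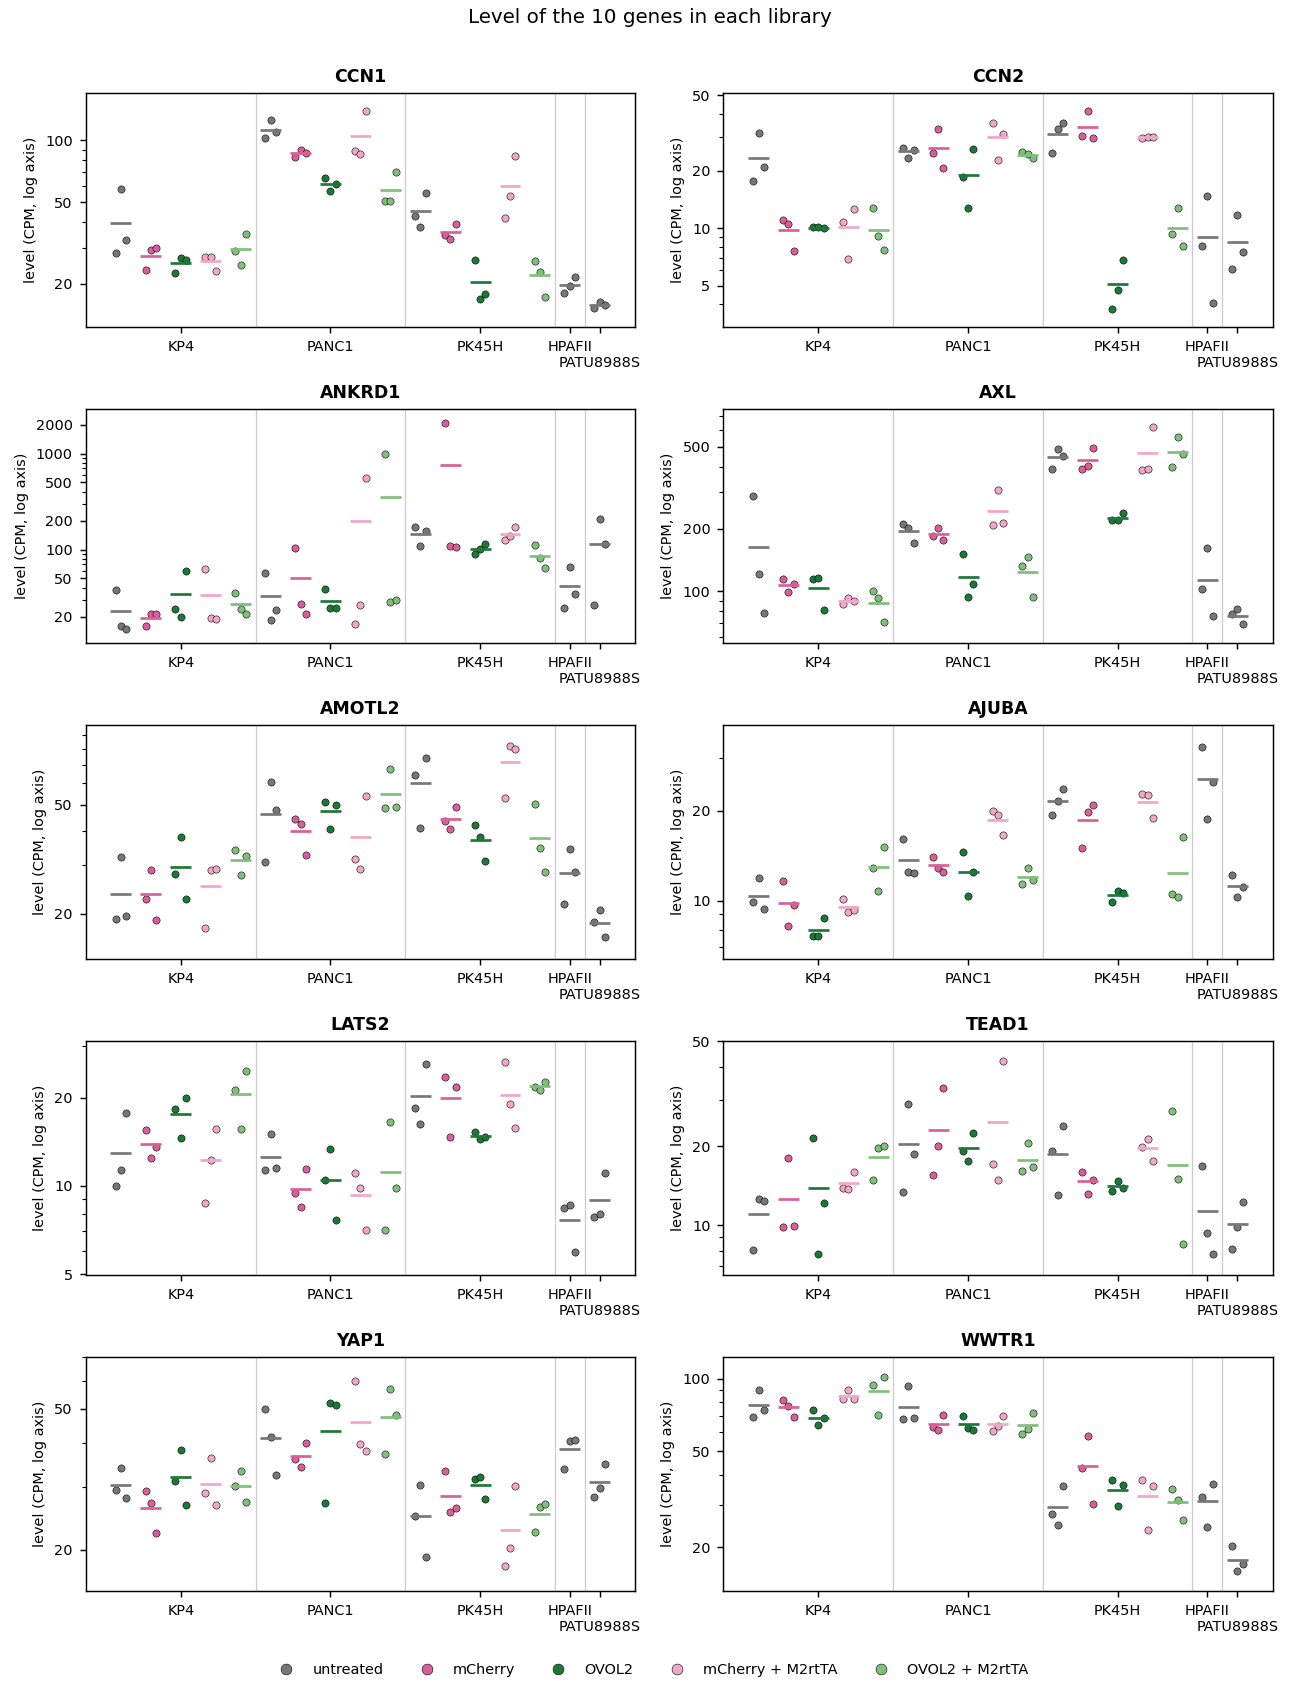
Level of each of the 10 genes in each of the 51 libraries (CPM, log axis), with lines on the horizontal axis, colours for the 5 kinds of group and bars for the mean of the 3 libraries of a group. CCN2 of PK45H lies at 3.78 to 6.85 CPM in the OVOL2 libraries and at 29.6 to 41.5 CPM in the mCherry libraries, and ANKRD1 reaches 558 to 2080 CPM in 3 single libraries.

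CCN2 (chromosome 6, 131948176 to 131951372; connective tissue growth factor) is a secreted matricellular protein and a direct TEAD target. In PK45H its level was 30.4, 41.5 and 29.6 CPM in the mCherry libraries and 3.78, 4.71 and 6.85 CPM in the OVOL2 libraries. With M2rtTA it was 29.7, 30.2 and 30.3 CPM with mCherry and 9.30, 12.7 and 8.05 CPM with OVOL2. In both arms every OVOL2 library lay far under every mCherry library, and the untreated libraries (24.7, 33.0 and 35.7 CPM) lay with the mCherry ones. The changes were -2.75 (SE 0.25, adjusted p = 1.26e-05, 6.71-fold lower) without and -1.58 (SE 0.23, adjusted p = 0.000474, 2.99-fold lower) with M2rtTA. Both held whichever PK45H library of the comparison was left out.

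In PANC1, CCN2 was at 24.8, 33.3 and 20.8 CPM with mCherry and at 18.5, 12.7 and 26.2 CPM with OVOL2, and with M2rtTA at 35.8, 22.9 and 31.2 against 25.1, 24.5 and 23.3 CPM. The groups overlapped in both arms, and the changes of -0.45 (adjusted p = 0.347) and -0.26 (adjusted p = 0.524) did not pass. In KP4 the transduced groups overlapped. The mCherry libraries were at 11.1, 10.5 and 7.59 CPM and the OVOL2 libraries at 10.1, 10.1 and 10 CPM, with a change of 0.05 (95% interval -0.53 to 0.63), and with M2rtTA the change was -0.03 (interval -0.62 to 0.56). The untreated KP4 libraries stood higher, at 17.7, 31.5 and 20.9 CPM. That the CCN2 change differed between the 3 lines passed its own test in both arms (adjusted p = 3.9e-05 without and 0.00965 with M2rtTA).

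CCN1 (chromosome 1, 85580761 to 85583950) is the closest relative of CCN2 among the 10, a secreted protein that binds integrins. In PANC1 it was at 82.8, 90.0 and 86.9 CPM with mCherry and 65.5, 56.9 and 61.0 CPM with OVOL2, and with M2rtTA at 88.9, 85.8 and 139 against 50.4, 50.5 and 70.0 CPM. In PK45H it was at 34.6, 33.0 and 39.3 against 26.2, 16.8 and 17.9 CPM, and with M2rtTA at 41.6, 53.8 and 84.3 against 25.9, 22.8 and 17.3 CPM. The groups did not overlap in any of these 4 comparisons, OVOL2 being lower in each. With M2rtTA, CCN1 fell by 0.84 in PANC1 (SE 0.19, adjusted p = 0.00877, 1.79-fold lower). In PK45H it fell by 1.44 (SE 0.26, adjusted p = 0.00221, 2.71-fold lower). Without it the PANC1 change was -0.49 (adjusted p = 0.162) and the PK45H change -0.84 (adjusted p = 0.066), neither past the threshold. The PANC1 call with M2rtTA was lost when mCherry + M2rtTA replicate 3, the library at 139 CPM, was left out (-0.57), and when OVOL2 + M2rtTA replicate 2 was (-0.74).

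In KP4, CCN1 was at 23.2, 29.2 and 29.7 CPM with mCherry and 22.6, 26.8 and 26.1 CPM with OVOL2, and with M2rtTA at 27.1, 27.1 and 23.1 against 28.8, 24.6 and 35.1 CPM. These groups overlapped, and the changes were -0.11 and 0.20 (adjusted p = 0.861 and 0.591). With M2rtTA the CCN1 change differed between lines (adjusted p = 0.00581). Without it the difference did not pass (adjusted p = 0.507). Over the lines CCN1 fell by 0.46 (SE 0.14, adjusted p = 0.0156) and, with M2rtTA, by 0.69 (SE 0.14, adjusted p = 0.000137).

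ANKRD1 (chromosome 10, 90912096 to 90921087), a nuclear ankyrin-repeat protein and a sensitive YAP target, had single libraries far above their mates. PK45H mCherry replicate 1 stood at 2080 CPM, while its mates were at 108 and 106 CPM and the OVOL2 libraries at 90.7, 102 and 115 CPM. PANC1 mCherry + M2rtTA replicate 3 stood at 558 CPM (mates 16.9 and 26.2 CPM), and PANC1 OVOL2 + M2rtTA replicate 1 at 991 CPM (mates 28.3 and 29.6 CPM). The fall in PK45H without M2rtTA (-2.93, SE 0.85, adjusted p = 0.0481) therefore rested on the first of these: without it the change was -0.10 and did not pass, and over the lines the change went from -0.94 (adjusted p = 0.311) to 0.00. That call was also lost when any of the 3 OVOL2 libraries was left out, and in 6 of the other settings, among them DESeq2 (-2.93), all 51 libraries in the fit (-2.90) and the replicate block (-2.27). In PK45H with M2rtTA the mCherry libraries (126, 140 and 170 CPM) all lay above the OVOL2 libraries (111, 82.0 and 63.7 CPM), and the change of -0.76 did not pass (adjusted p = 0.574).

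AXL (chromosome 19, 41219223 to 41261766) is the receptor tyrosine kinase for GAS6. In PK45H without M2rtTA its level was 391, 404 and 491 CPM with mCherry and 220, 222 and 238 CPM with OVOL2, without overlap, and it fell by 0.95 (SE 0.19, adjusted p = 0.00605, 1.93-fold lower). In the same line with M2rtTA the levels were 384, 389 and 621 against 400, 559 and 459 CPM, with full overlap and a change of 0.03 (interval -0.36 to 0.43). A direct test of the difference between these 2 changes, added after the first results were seen, gave 0.98 (SE 0.26, adjusted p = 0.0774), short of the threshold. AXL thus passed in PK45H without M2rtTA and in PANC1 with it, but the difference between arms did not pass for AXL in either line.

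In PANC1 with M2rtTA, AXL was at 210, 307 and 214 CPM with mCherry and 132, 146 and 93.5 CPM with OVOL2, a fall of 0.95 (SE 0.21, adjusted p = 0.00845, 1.93-fold lower). Without M2rtTA it was at 185, 203 and 177 against 151, 93.6 and 108 CPM, a change of -0.67 that did not pass (adjusted p = 0.0856) except when OVOL2 replicate 1 was left out. The groups did not overlap in either arm. In KP4 the changes were -0.03 in both arms, with intervals from -0.76 to 0.69 and from -0.75 to 0.70. Over the lines AXL fell by 0.53 without M2rtTA (SE 0.16, adjusted p = 0.0138) and changed by -0.32 with it, which did not pass (adjusted p = 0.12). The test of a difference between lines did not pass in either arm (adjusted p = 0.384 and 0.168).

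AJUBA (chromosome 14, 22971177 to 22982551) is a LIM-domain adaptor that binds and restrains LATS kinases. In PK45H it was at 15, 19.8 and 20.9 CPM with mCherry and 9.92, 10.8 and 10.6 CPM with OVOL2, and with M2rtTA at 22.7, 22.6 and 18.9 against 10.5, 10.3 and 16.3 CPM. In PANC1 with M2rtTA it was at 20.0, 19.4 and 16.6 against 11.4, 12.9 and 11.7 CPM. All 3 comparisons were without overlap, OVOL2 being lower, and AJUBA fell by 0.85 (SE 0.20, adjusted p = 0.016), 0.78 (SE 0.19, adjusted p = 0.0148) and 0.59 (SE 0.17, adjusted p = 0.0303). Leaving out PK45H mCherry replicate 2 or 3, OVOL2 replicate 1 or 3, OVOL2 + M2rtTA replicate 1 or 2, or any PANC1 library of the comparison but mCherry + M2rtTA replicate 3 took the corresponding call away, with changes of -0.87 to -0.53 in what remained. The PANC1 call was also lost without a filter (-0.60), with DESeq2 (-0.58), with only the groups compared (-0.62) and when libraries were thinned to equal totals (-0.27). The PANC1 mCherry libraries without M2rtTA were at 14, 12.9 and 12.5 CPM, nearer to the OVOL2 + M2rtTA than to the mCherry + M2rtTA libraries.

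KP4 differed for AJUBA. With M2rtTA its OVOL2 libraries (12.9, 10.8 and 15.1 CPM) all lay above its mCherry libraries (10.1, 9.19 and 9.32 CPM), a change of 0.44 that did not pass (SE 0.18, adjusted p = 0.104). Without M2rtTA the KP4 change was -0.29 (adjusted p = 0.42). The AJUBA change differed between lines with M2rtTA (adjusted p = 0.00235) and did not pass without it (adjusted p = 0.158). Over the lines AJUBA fell by 0.39 (SE 0.10, adjusted p = 0.00565) and by 0.31 with M2rtTA (SE 0.10, adjusted p = 0.013).

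AMOTL2 (chromosome 3, 134355345 to 134375417), an angiomotin that holds YAP1 at junctions and is also a target of it, showed changes of opposite sign in PANC1 and PK45H with M2rtTA. In PK45H with M2rtTA it was at 52.9, 82.2 and 79.8 CPM with mCherry and 50.3, 34.7 and 28.4 CPM with OVOL2, and it fell by 0.92 (SE 0.25, adjusted p = 0.0247). In PANC1 with M2rtTA it was at 31.8, 29.1 and 53.8 against 48.5, 67.5 and 48.9 CPM, which overlapped, with a change of 0.56 (adjusted p = 0.185). The difference between lines passed with M2rtTA (adjusted p = 0.0226). The PK45H call was lost without mCherry + M2rtTA replicate 2 or 3 or OVOL2 + M2rtTA replicate 2 or 3, with changes of -0.87 to -0.74, while the PANC1 change passed without mCherry + M2rtTA replicate 3. The PK45H mCherry libraries without M2rtTA were at 43.7, 40.7 and 49.2 CPM, within the range of the OVOL2 + M2rtTA libraries of that line. Over the lines the changes of 0.12 and -0.01 did not pass.

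LATS2 (chromosome 13, 20973036 to 21061586), the kinase that inactivates YAP1 and WWTR1 and is transcribed in response to them, was the only one of the 10 whose mean change over the lines with M2rtTA was upward by more than 0.3. The change was 0.39 (SE 0.16, adjusted p = 0.0551), just short of the threshold, and 0.02 without M2rtTA. In KP4 with M2rtTA it was at 8.74, 12.3 and 15.7 CPM with mCherry and 21.3, 15.7 and 24.6 CPM with OVOL2, a change of 0.74 (SE 0.26, adjusted p = 0.0558). The 2 groups met at 15.7 CPM. LATS2 passed in KP4 without mCherry + M2rtTA replicate 3 or OVOL2 + M2rtTA replicate 2, and in several alternatives to the test.

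TEAD1 (chromosome 11, 12674421 to 12944737), the DNA-binding partner, passed in no comparison of OVOL2 with mCherry. Its highest group mean was 24.7 CPM (SD 15, PANC1 mCherry + M2rtTA) and its lowest 10.1 CPM (SD 2.08, untreated PATU8988S). The changes over the lines were -0.03 (interval -0.47 to 0.40) and -0.10 (interval -0.53 to 0.33).

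YAP1 (chromosome 11, 102110447 to 102233424) and WWTR1 (chromosome 3, 149517235 to 149724788), the coactivators themselves, passed in no line and no arm. YAP1 ran from 18 to 60 CPM and WWTR1 from 16 to 102 CPM over all libraries. In PK45H, where CCN2 fell most, YAP1 was at 33.4, 25.6 and 26.2 CPM with mCherry and 31.6, 32.0 and 27.8 CPM with OVOL2, and WWTR1 at 42.7, 57.8 and 30.3 against 38.0, 29.6 and 36.1 CPM. Both pairs of groups overlapped. Over the lines the YAP1 change was 0.22 (interval -0.04 to 0.49, adjusted p = 0.256) without and 0.07 (interval -0.19 to 0.34) with M2rtTA, and the WWTR1 change was -0.15 (interval -0.37 to 0.08, adjusted p = 0.401) and 0.00 (interval -0.22 to 0.23). A transcript antisense to WWTR1, WWTR1-AS1, had at most 14 counts in a library. Whether the counting used strand is not given in the sources used here.

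**Figure D2:**
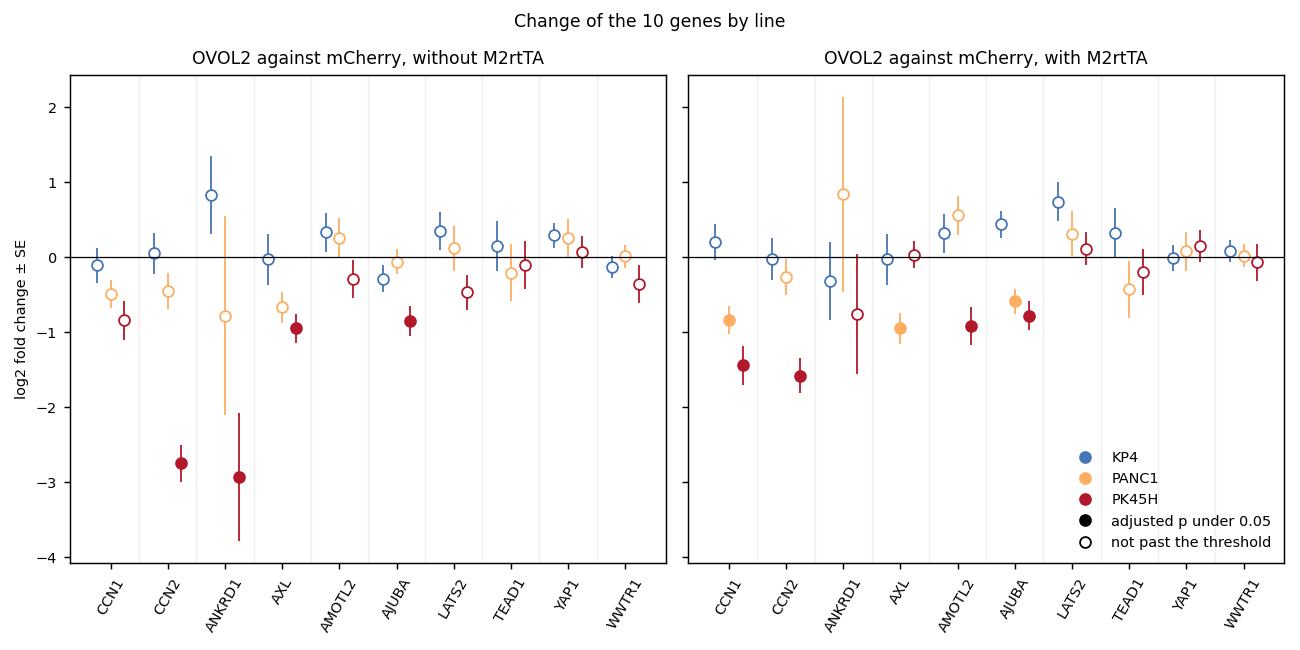
Log2 fold change of OVOL2 against mCherry with its standard error for each of the 10 genes in KP4, PANC1 and PK45H, without (left) and with (right) M2rtTA. Filled points have an adjusted p under 0.05, and all of them lie under 0: 4 in PK45H on the left, and 3 in PANC1 and 4 in PK45H on the right.

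By line, the count of genes that passed was 0 of 10 in KP4 in both arms (edgeR; all genes 6.82% and 22.4%), with 0 and 2 of the 10 at an unadjusted p under 0.05 and 0 and 1 by DESeq2. In PANC1 it was 0 of 10 without M2rtTA (edgeR; all genes 5.08%; 2 at an unadjusted p under 0.05, 1 by DESeq2) and 3 with it (all genes 13.9%, and 8.18% lower). In PK45H it was 4 in each arm (all genes 8.39% and 15.9%, of which lower 4.81% and 8.40%), all lower. The median change of the 10 was -0.66 and -0.48 in PK45H, -0.14 and -0.12 in PANC1 and 0.10 and 0.14 in KP4, beside medians of all genes from -0.02 to 0.02. The 4 in PK45H without M2rtTA included ANKRD1, whose call rested on the library at 2080 CPM. Whichever library of that comparison was left out, the count was 2 or 3. It was 2, CCN2 and AXL, when OVOL2 replicate 3 was left out. With M2rtTA it was 2, CCN1 and CCN2, when OVOL2 + M2rtTA replicate 2 was. The PANC1 count with M2rtTA was 1, AXL, when OVOL2 + M2rtTA replicate 2 was left out.

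Counting genes whose groups did not overlap, OVOL2 lay wholly lower for 2 of 10 genes in PANC1 without M2rtTA and 3 with it (13.1% and 18.2% of all genes), and for 4 and 5 in PK45H (12.3% and 18%). In KP4 it lay wholly lower for 0 in both arms (13.5% and 19.2%) and wholly higher for 1, AJUBA, with M2rtTA (17.2%). A difference of the OVOL2 change between lines passed for 1 of 10 genes without M2rtTA (CCN2; all genes 2.74%) and for 4 with it (CCN1, CCN2, AMOTL2 and AJUBA; all genes 7.56%).

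The marker lists were summed in the same groups. In PK45H the 5 epithelial genes summed to 1040 to 1110 CPM with mCherry and 2380 to 2480 CPM with OVOL2, and with M2rtTA to 915 to 1130 against 2450 to 2520 CPM. In KP4, where none of the 10 genes passed, they summed to 590 to 624 against 845 to 952 CPM, and with M2rtTA to 452 to 474 against 704 to 898 CPM. PANC1 showed 2020 to 2460 against 2110 to 2360 CPM, and with M2rtTA 2090 to 2300 against 1660 to 2070 CPM. The fibroblast sum, of which COL1A1 alone reached 58.2 CPM, was higher with OVOL2 + M2rtTA than with mCherry + M2rtTA in all 3 lines (42.3 to 52.0 against 12.3 to 24 CPM in KP4, 47.0 to 64.8 against 22.5 to 34.7 CPM in PANC1, 26.1 to 32.7 against 11 to 12.8 CPM in PK45H). The share of counts from the 13 mitochondrial protein-coding genes was higher with OVOL2 in PANC1, at 28.3% to 29.1% against 22.5% to 25.9%, and with M2rtTA at 30.3% to 31.5% against 25% to 25.3%. In the transduced groups of KP4 and PK45H the groups overlapped in both arms, with shares of 21.9% to 26.7%. The part of these differences in the results for the 10 genes was not tested.

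The change under OVOL2 with M2rtTA was then set against the change without it, and their difference was tested. Over the lines, 0 of the 10 genes passed (edgeR; all genes 7.72%), with 0 at an unadjusted p under 0.05 and 0 by DESeq2. Leaving ANKRD1 aside, CCN2 had the largest difference (0.40, SE 0.21, adjusted p = 0.273), whose fall was smaller with M2rtTA. Within PK45H alone the same difference for CCN2 was 1.16 (SE 0.34, adjusted p = 0.101).

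The control groups were compared in the same way. For mCherry against untreated cells, 0 of 10 genes passed in KP4, PANC1 or PK45H (edgeR; all genes 0%, 0.598% and 0.00736%), with 2, 0 and 2 at an unadjusted p under 0.05, and 1, 0 and 0 by DESeq2. Of all genes, 966 of 13662, 1358 of 13218 and 1084 of 13583 had an unadjusted p under 0.05 by edgeR. The gene that DESeq2 called was CCN2 in KP4, where edgeR gave a change of -1.25 (SE 0.27, adjusted p = 0.454) and the groups did not overlap: untreated KP4 had 17.7 CPM or more and mCherry 11.1 CPM or less. Of all genes, 6.18% were wholly lower there. In PANC1, CCN1 lay wholly lower with mCherry (82.8 to 90 CPM) than in untreated cells (103 to 126 CPM). For mCherry + M2rtTA against mCherry, 0 of 10 passed in each line by edgeR and by DESeq2 (all genes 0%, 0% and 0.0294%), with 0, 1 and 3 at an unadjusted p under 0.05. All genes had 919 of 13662, 812 of 13218 and 1280 of 13583 at that level. The 1 in PANC1 was AJUBA (0.50, adjusted p = 0.652). The 3 in PK45H were CCN1 (0.75), AMOTL2 (0.68) and ANKRD1 (-2.40), the last again with the mCherry library at 2080 CPM. Some of these control groups did not overlap. With M2rtTA, AXL lay wholly lower and WWTR1 wholly higher in KP4. AXL and AJUBA lay wholly higher in PANC1, and CCN1, AMOTL2 and TEAD1 in PK45H. The share of all genes that separated in this way is not given here.

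Among untreated cells, HPAFII and PATU8988S had lower levels of 6 of the 10 genes than KP4, PANC1 and PK45H. CCN1 was 3.29-fold lower, CCN2 3.15-fold, AXL 2.57-fold, WWTR1 2.34-fold, LATS2 1.81-fold and AMOTL2 1.76-fold. ANKRD1, AJUBA, TEAD1 and YAP1 did not pass. Of all genes tested, 34.8% passed in this comparison, 17.4% as higher and 17.4% as lower, and the median change was -0.83 for the 10 genes and 0.00 for all genes.

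CCN1 was at 18.1, 19.5 and 21.5 CPM in HPAFII and 15.2, 16.2 and 15.8 CPM in PATU8988S, and every library of the other lines was above these: 103, 126 and 110 CPM in PANC1, 43.0, 37.6 and 55.5 CPM in PK45H, and 28.3, 57.6 and 32.5 CPM in KP4. It fell by 1.72 (SE 0.16, adjusted p = 1.37e-06). CCN2 was at 8.08, 14.8 and 4.04 CPM in HPAFII and 6.08, 11.7 and 7.47 CPM in PATU8988S, all under the lowest library of the other 3 lines (17.7 CPM, KP4), with a change of -1.66 (SE 0.24, adjusted p = 9.66e-05). The PK45H OVOL2 libraries, at 3.78 to 6.85 CPM, overlapped the lower part of this range.

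WWTR1 was at 20.3, 16 and 17 CPM in PATU8988S and 32.3, 24.2 and 36.6 CPM in HPAFII. PK45H, at 27.4, 24.8 and 35.8 CPM, overlapped HPAFII, while KP4 (69.6, 89.8 and 74.3 CPM) and PANC1 (67.9, 93.0 and 68.7 CPM) stood above all of these. Its change was -1.23 (SE 0.14, adjusted p = 7.32e-06). The AXL change was -1.36 (SE 0.25, adjusted p = 0.000672). Its libraries overlapped, since KP4 had 290, 121 and 78.2 CPM and HPAFII 102, 162 and 75.7 CPM. LATS2 (-0.86, SE 0.19, adjusted p = 0.00245) and AMOTL2 (-0.81, SE 0.19, adjusted p = 0.00457) were lower as well, with 5.93 to 11.1 CPM and 16.4 to 34.4 CPM in the 6 libraries of HPAFII and PATU8988S. The LATS2 call was lost when libraries were thinned to equal totals (-0.46). The KP4 libraries of AMOTL2, at 19.2, 32.3 and 19.6 CPM, lay within the range of those 6.

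YAP1 was at 33.9, 40.6 and 40.9 CPM in HPAFII and 28.1, 29.9 and 35 CPM in PATU8988S, within the range of the other 3 lines (19.1 to 49.8 CPM), with a change of 0.15 (interval -0.14 to 0.43, adjusted p = 0.437). AJUBA had its highest untreated mean in HPAFII (25.5 CPM, SD 6.97) and its change was 0.24 (adjusted p = 0.183). ANKRD1 (0.53, adjusted p = 0.317) and TEAD1 (-0.57, adjusted p = 0.0684) did not pass. TEAD1 did pass without HPAFII replicate 1, KP4 replicate 1, PANC1 replicate 1 or PK45H replicate 2. Without HPAFII replicate 2 the count stayed at 6, with changes of -1.72 for CCN1, -1.88 for CCN2, -1.55 for AXL, -0.90 for AMOTL2, -0.90 for LATS2 and -1.17 for WWTR1. The epithelial sum was 3140 to 9050 CPM in HPAFII and 3890 to 4080 CPM in PATU8988S, against 505 to 629 CPM in KP4, 1070 to 1190 CPM in PK45H and 2810 to 3180 CPM in PANC1. The mitochondrial share of counts was 31.8% to 33.6% in PATU8988S and 24.6% to 30.9% in HPAFII, against 23.7% to 27.3% in the other 3 lines. The part of either in these differences was not tested.

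**Figure D3:**
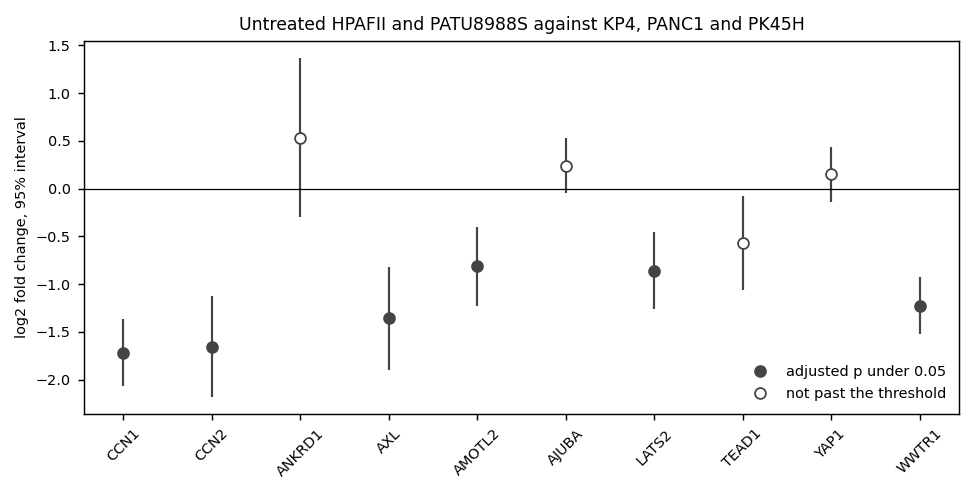
Log2 fold change of untreated HPAFII and PATU8988S against untreated KP4, PANC1 and PK45H for the 10 genes, with 95% intervals. The 6 filled points, with an adjusted p under 0.05, lie between -1.72 (CCN1) and -0.81 (AMOTL2), and the interval of YAP1 spans 0.

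All 10 genes differed among the 5 untreated lines in a test of any difference, where 57.8% of all genes did. Left-out libraries lowered this to 8 at the least, TEAD1 and YAP1 being the genes lost. Ordered by mean level, CCN1 ran PANC1 (113 CPM), PK45H (45.3), KP4 (39.5), HPAFII (19.7), PATU8988S (15.8). CCN2 ran PK45H (31.1), PANC1 (25.3), KP4 (23.4), HPAFII (8.99), PATU8988S (8.40), and AXL ran PK45H (443), PANC1 (195), KP4 (163), HPAFII (114), PATU8988S (76.2). For these 3 genes KP4, PANC1 and PK45H held the 3 highest means.

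WWTR1 ran KP4 (77.9), PANC1 (76.5), HPAFII (31.1), PK45H (29.3), PATU8988S (17.8). YAP1 ran PANC1 (41.3), HPAFII (38.5), PATU8988S (31.0), KP4 (30.5), PK45H (24.8). PK45H thus had the highest CCN2 and AXL means and the lowest YAP1 mean. By edgeR, PK45H differed from the next line in order for AXL (adjusted p = 0.0319), and not for CCN2 (adjusted p = 0.577) or YAP1 (adjusted p = 0.395). AMOTL2 ran PK45H (59.8), PANC1 (46.3), HPAFII (28.1), KP4 (23.7), PATU8988S (18.6). LATS2 ran PK45H (20.3), KP4 (13), PANC1 (12.6), PATU8988S (8.97), HPAFII (7.64).

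AJUBA ran HPAFII (25.5), PK45H (21.5), PANC1 (13.7), PATU8988S (11.2), KP4 (10.4). TEAD1 ran PANC1 (20.3), PK45H (18.6), HPAFII (11.3), KP4 (11), PATU8988S (10.1), and ANKRD1 ran PK45H (145), PATU8988S (116), HPAFII (41.5), PANC1 (33.0), KP4 (22.9). Of the 40 pairs of lines next to each other in these orders, 7 differed past the threshold. They were CCN1 between PANC1 and PK45H (adjusted p = 0.000724) and between KP4 and HPAFII (adjusted p = 0.0091), CCN2 between KP4 and HPAFII (adjusted p = 0.00862), AXL and AJUBA between PK45H and PANC1 (adjusted p = 0.0319 and 0.0309), and WWTR1 between PANC1 and HPAFII (adjusted p = 0.000345) and between PK45H and PATU8988S (adjusted p = 0.016). The other 33 pairs did not pass. The pairs were set by the order of the same levels that were then tested. Such pairs were formed for the 10 genes only, so no share of all genes stands beside this count. Without HPAFII replicate 2, an alternative added for these pairs after the data were seen, the same 7 passed.

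Other genes of the pathway were read from 3 lists. Of 20 upstream regulators 19 were tested, and without M2rtTA 4 (21.1%, beside 18.1% of all genes) passed over the lines: WWC1 rose (0.40) and STK3 (-0.47), NF2 and AMOTL1 (-0.79) fell. With M2rtTA 6 passed (31.6%, beside 32.9% of all genes), 2 higher (TAOK2, 0.34, and WTIP, 0.56) and 4 lower (NF2, FRMD6, MOB1A and WWC2). NF2 (merlin), FRMD6 and WWC2 (a relative of KIBRA) sit at the membrane and help activate the kinases, and MOB1A is the cofactor of LATS kinases. Both shares were close to those of all genes, and the list medians were -0.03 and -0.05.

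NF2 fell by 0.43 without M2rtTA (SE 0.13, adjusted p = 0.0224) and by 1.02 with it (SE 0.14, adjusted p = 2.57e-07, 2.02-fold lower). The call without M2rtTA was lost without KP4 OVOL2 replicate 1 or 2, PANC1 mCherry replicate 3 or PK45H mCherry replicate 2 (-0.39 to -0.37), and when thinned (-0.44). In PK45H with M2rtTA it was at 67.9, 98.6 and 66.4 CPM with mCherry and 23.9, 24.3 and 24.8 CPM with OVOL2, and in PANC1 at 76.5, 67.0 and 69.2 against 26.1, 35 and 29.8 CPM. In KP4 the groups overlapped (30.3, 39.1 and 40.8 against 33.0, 37.9 and 24.8 CPM), and the difference between lines passed (adjusted p = 0.0109). The NF2 change was larger with M2rtTA than without (difference -0.59, adjusted p = 0.0481). The same held for FRMD6 (-0.08 and -0.62; difference adjusted p = 0.00515) and MOB1A (-0.01 and -0.45; difference adjusted p = 0.00273). WWC2 changed by -0.40 (adjusted p = 0.17) and -0.77 (adjusted p = 0.00307). NF2, FRMD6, MOB1A and WWC2 were named for a small p with M2rtTA, so the test of a difference between arms was tilted toward passing for them. Of the 19 regulators tested, 3 (15.8%) passed it over the lines, beside 7.72% of all genes.

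Of 7 further TEAD and VGLL genes, the VGLL proteins being competitors or partners of YAP1 on TEAD, 5 were tested and 0 passed without M2rtTA (edgeR; 0 at an unadjusted p under 0.05; all genes 18.1%). With M2rtTA 1 passed (20%, beside 32.9% of all genes), TEAD4, which fell by 0.32 (adjusted p = 0.0333). The list medians were -0.06 and 0.18.

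Of 20 further target genes 19 were tested. Without M2rtTA 5 passed (26.3%, beside 18.1% of all genes), 1 higher (NUAK2) and 4 lower (CRIM1, TGFB2 and RBMS3 among them), and with M2rtTA 11 passed (57.9%, beside 32.9%), 2 higher (NUAK2 and ARHGEF17) and 9 lower. The list medians were -0.17 and -0.29.

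NT5E, the cell-surface nucleotidase that makes adenosine, fell by 1.46 with M2rtTA (SE 0.11, adjusted p = 4.04e-13, 2.75-fold lower) and changed by -0.24 without it (adjusted p = 0.103), and this difference passed (-1.22, adjusted p = 1.08e-06). With M2rtTA it was at 103, 92.3 and 106 CPM with mCherry and 35.4, 34.7 and 32.4 CPM with OVOL2 in PK45H, at 88.3, 68.6 and 64.4 against 24.4, 25.1 and 28.2 CPM in PANC1, and at 17.7, 24.3 and 14.6 against 7.87, 6.07 and 8.20 CPM in KP4. It thus separated in all 3 lines, KP4 included, and its test of a difference between lines did not pass (adjusted p = 0.888). NUAK2, a kinase and YAP target, rose by 0.88 (SE 0.17, adjusted p = 0.000264) and 1.11 (adjusted p = 2.4e-06). Its rise passed in KP4 (1.62, adjusted p = 0.00167, and 1.98, adjusted p = 0.00012), where none of the 10 genes did.

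With M2rtTA the remaining named targets fell over the lines: CRIM1 by 0.52 (adjusted p = 8.66e-05), GADD45A by 0.67 (adjusted p = 0.000456), FJX1 by 0.60 (adjusted p = 0.000984), MYOF by 0.41 (adjusted p = 0.0015) and ARHGAP29 by 0.89 (adjusted p = 0.00157). Without M2rtTA, CRIM1 fell by 0.31 (adjusted p = 0.0227), a call lost without PK45H mCherry replicate 3 (-0.27) or PK45H OVOL2 replicate 1 (-0.26), and the others changed by -0.03, -0.17, -0.11 and 0.03. The dependence on M2rtTA passed for GADD45A (adjusted p = 0.0465) and not for ARHGAP29 (adjusted p = 0.059), CRIM1 (adjusted p = 0.429), FJX1 (adjusted p = 0.193) or MYOF (adjusted p = 0.211). The named targets, NT5E included, were also picked for a small p with M2rtTA, which tilted this test in the same way. Of the 19 further targets tested, 2 (10.5%) passed it, beside 7.72% of all genes. In untreated HPAFII and PATU8988S against the other 3 lines, 13 of 20 further targets passed (65%), 10 of them lower. Of the upstream regulators 9 of 19 passed (47.4%), 5 lower, and of the TEAD and VGLL genes 3 of 5 (60%), TEAD3 higher and TEAD2 and TEAD4 lower. The share of all genes was 34.8%. Without HPAFII replicate 2 these counts were 15, 10 and 3.

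**Figure D4:**
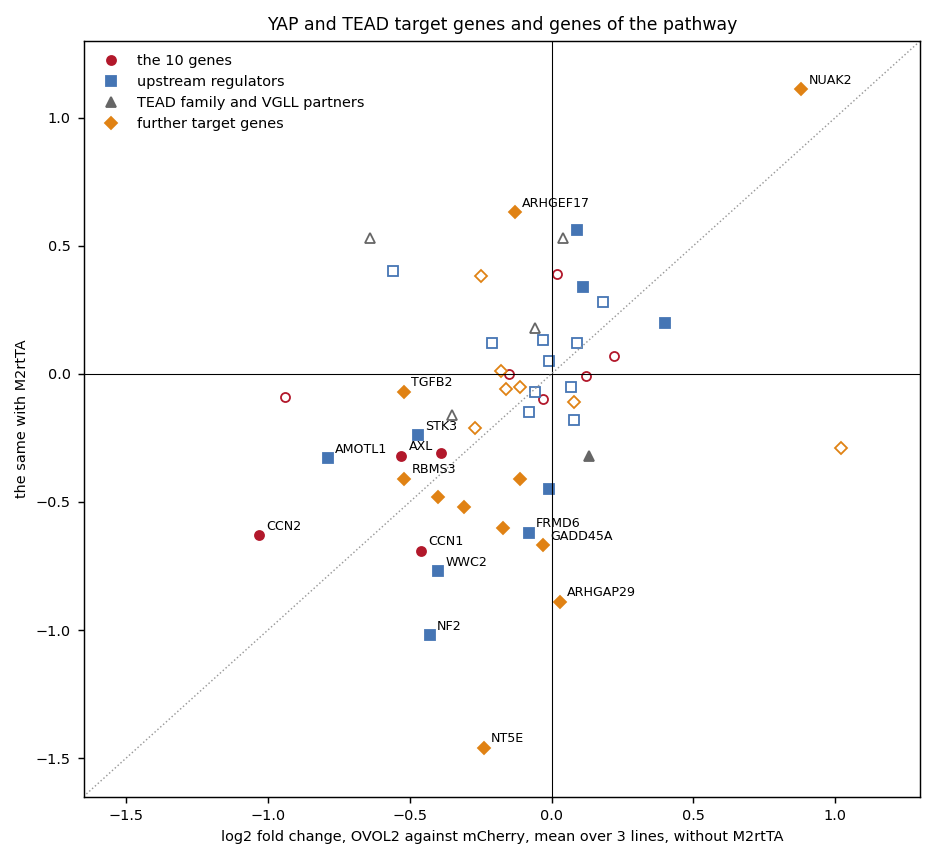
Mean log2 fold change of OVOL2 against mCherry over KP4, PANC1 and PK45H without M2rtTA (horizontal) and with it (vertical) for the 10 genes and the genes reported of the 3 pathway lists, with the line of equal change dotted. Filled symbols passed the test in at least 1 arm. CCN2 lies at -1.03 and -0.63, NT5E at -0.24 and -1.46, and NUAK2 at 0.88 and 1.11.

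The genes whose level across the 17 group means was most like that of 5 of the 10 were ranked by Pearson r of log2 CPM among 10276 genes. They were ZNF365 (0.965), SEC14L1 (0.931) and SLC26A2 (0.92) for CCN1, BASP1 (0.863), MPP1 (0.843) and TIAM2 (0.842) for CCN2, and TMEM255B (0.923), AOX1 (0.92) and MAD1L1 (0.92) for AXL. For YAP1 they were PRR13 (0.902), ARMC7 (0.898) and TMEM41B (0.887), and for WWTR1 CCDC74A (0.94), MAPK8IP2 (0.939) and KCNMA1 (0.928). Within the 10, the same measure was 0.81 between CCN1 and CCN2 and 0.82 between CCN1 and TEAD1, while CCN2 had 0.14 with YAP1 and 0.17 with WWTR1. Without HPAFII replicate 2, 9 of these 15 genes were still among the 3 most alike. These are descriptions over groups that share lines, so line differences carry much of them.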

How the data were processed

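RNA of 51 cultures of 5 cell lines was read by PLATE-seq from 100 ng of total RNA each. The values are counts per gene as deposited by the authors, whole numbers without normalization. Per the submitters' processing notes, kallisto 0.44.0 and the build GRCh38 were used, without a stated role or order, and whether counting used strand is not given in the sources used here. Groups came from the sample labels. Transduction was in triplicate per the labels' protocols. No label says whether untreated replicates were separate cultures, so p-values measure the spread between these samples, which may be technical.

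Counts were fitted with edgeR 4.0.16 (limma 3.58.1, R 4.3.3): filterByExpr by group, TMM scaling, the quasi-likelihood test, two-sided, and Benjamini-Hochberg adjustment over all genes of a fit, at 0.05. The fits held the 15 libraries of a line, the 45 libraries of KP4, PANC1 and PK45H (mean over lines, difference between lines, difference between arms), or the 15 untreated libraries. Levels are TMM-scaled CPM over all 51 libraries. The interval of a change is its 95% confidence interval. Comparisons that share a mCherry or untreated group are not independent.

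The 10 genes and the lists were chosen with earlier results of these data known. Named beside the 10 were the 12 list genes with the smallest p in the arm with M2rtTA among those passing over the lines, and for 5 of the 10 the 3 genes with the highest Pearson r of group-mean log2 CPM (prior count 2) among genes of at least 5 CPM on average. Results of 1 gene of the lists are not reported here. Other list genes are named where they make up a count and were chosen after their values were seen. The test of M2rtTA dependence within each line was added after the first results. Alternatives were DESeq2 1.42.0, RLE scaling, a filter at a mean count of 10 or none at all, only the groups compared, all 51 libraries, a replicate block, robust dispersion, thinning to the smallest library total, and each library left out. Replicate numbers did not pair the samples: 1 of 18 same-numbered pairs had a correlation of deviations above 0.1 (range -0.172 to 0.162). No 2 replicates were alike within sampling noise (lowest chi-square per degree of freedom 16.3 over 51 pairs). Tested on simulated data with 200 genes changed 2-fold, the test recovered 22.5% of them for PK45H with M2rtTA (13342 genes), 87.5% over the lines with M2rtTA (14443 genes) and 69% for the untreated lines (13404 genes). Promoter windows come from a RefSeq table of GRCh38.p14, and motifs were searched as exact letters on both strands.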

Additional observations from a re-analysis of the deposited data

Results flagged for a closer look

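The change under OVOL2 differed between KP4, PANC1 and PK45H for 5 of the 20 combinations of gene and arm. The test was edgeR's test of the difference itself. Without M2rtTA 1 gene passed it, beside 2.74% of all genes, and with M2rtTA 4 passed, beside 7.56%. Without M2rtTA this was CCN2 (adjusted p = 3.9e-05), with log2 fold changes of 0.05 in KP4, -0.45 in PANC1 and -2.75 in PK45H. With M2rtTA it was CCN2 again (adjusted p = 0.00965; -0.03, -0.26 and -1.58 in that order), CCN1 (adjusted p = 0.00581; 0.20, -0.84 and -1.44), AMOTL2 (adjusted p = 0.0226; 0.32, 0.56 and -0.92) and AJUBA (adjusted p = 0.00235; 0.44, -0.59 and -0.78). In each of the 5 the value in PK45H was the lowest. When libraries were thinned to equal totals, the count with M2rtTA fell from 4 to 0. The count without M2rtTA stayed at 1 in every alternative.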

How the results depend on the processing

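Over the lines without M2rtTA, the same 4 calls stood whichever library was left out. With M2rtTA the count of members passing was 3 to 4 over left-out libraries, LATS2 being the addition. In KP4 with M2rtTA it was 0 to 1, and it was 1 (LATS2) with a mean count of at least 10, with DESeq2, with all 51 libraries, with the replicate block and with robust dispersion. In PANC1 it was 0 to 1 without M2rtTA and 1 with DESeq2 (AXL), and with M2rtTA 1 to 3 and 1 with only the groups compared (AXL). In PK45H it was 2 to 3 without M2rtTA and 2 when libraries were thinned (CCN2 and AXL), and with M2rtTA 2 to 4 and 2 with only the groups compared or when thinned (CCN1 and CCN2). Differences between lines with M2rtTA were 3 to 4, and 0 when thinned. DESeq2 gave 1 (CCN2) for mCherry against untreated KP4.

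Changes over the lines near 0 turned sign. ANKRD1 without M2rtTA was not near 0, at -0.94, and reached 0.00 when PK45H mCherry replicate 1 was left out. Thinning gave -0.16 for LATS2, 0.03 for FRMD6, 0.16 for MOB1A and 0.04 for FJX1 without M2rtTA and 0.02 for ANKRD1 with it. The replicate block gave -0.01 for ARHGAP29 without M2rtTA. With M2rtTA, AMOTL2 was 0.01 with RLE scaling and with DESeq2 and 0.00 with a mean count of at least 10, and WWTR1 was 0.00 without a filter and -0.01 with all 51 libraries. Over left-out libraries without M2rtTA, ANKRD1 ran from -1.17 to 0.00, LATS2 from -0.06 to 0.07, TEAD1 from -0.20 to 0.08, MOB1A from -0.04 to 0.01, GADD45A from -0.14 to 0.16 and ARHGAP29 from -0.13 to 0.12. With M2rtTA, ANKRD1 ran from -1.28 to 0.97, AMOTL2 from -0.10 to 0.10, TEAD1 from -0.28 to 0.10 and WWTR1 from -0.05 to 0.05. Calls over the lines that were lost when thinned were CCN1 without M2rtTA (-0.50) and AJUBA with it (-0.14). LATS2 with M2rtTA passed with RLE scaling (0.40) and DESeq2 (0.40). The cause of these differences was not tested. For the untreated lines, only the groups compared is the fit already used. Thinning brought every library to about 1165399 counts, the smallest total.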
